A study of Mus musculus with 11 samples.

Results

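The Hox genes are 39 of the 21534 gene regions for which lamina contact scores were deposited. They were taken as every row whose symbol is Hoxa, Hoxb, Hoxc or Hoxd followed only by a number. They fall into 4 clusters, with 11 Hoxa genes over 117.5 kb of chromosome 6, 10 Hoxb genes over 185.9 kb (chr11:96184360-96370253), 9 Hoxc genes over 127.7 kb (chr15:102911130-103038852) and 9 Hoxd genes over 108.8 kb (chr2:74658309-74767142), all in mm10 coordinates of the gene regions with their flanks.

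Hox genes encode homeodomain transcription factors that give segments of the body axis their identity. Within a cluster they lie in the order in which they act along that axis, and genes at the same place in different clusters are paralogs with the same number, low for the head side and high for the tail side. In the nervous system they are active in the hindbrain and spinal cord and are kept silent in the forebrain, where Polycomb complexes hold them in a compact state, while trithorax proteins and retinoic acid signalling are known to open them. The nuclear lamina is the protein mesh under the nuclear envelope, and chromatin at the lamina is mostly inactive, but silence by Polycomb and silence at the lamina are separate states that need not coincide.

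Contact with the lamina was measured by DamID-seq. A lentivirus brought in the bacterial adenine methyltransferase Dam, either fused to the lamina filament protein lamin B1 (Dam-LMNB1) or on its own, so that adenines near the lamina become methylated, while free Dam shows which DNA is accessible. The cells were primary oligodendrocyte precursor cells, the dividing cells that give rise to myelinating oligodendrocytes, from the cortex of wild-type C57BL/6 mice at postnatal day 7. After 1 day with virus they spent 72 h either in oligodendrocyte differentiating medium labelled T3 (OL) or in precursor proliferation medium labelled PF (OPC). The groups are OL Dam-LMNB1 (3 libraries, numbered 18, 19 and 20), OL Dam (3 libraries), OPC Dam-LMNB1 (3 libraries, numbered 8, 9 and 10) and OPC Dam (2 libraries). Both conditions carry a lentiviral enzyme, OL names the medium rather than sorted cells, and the promoter of the vector was not stated in the sources used. The scores are not RNA levels, so neither the identity of the cells nor Hox expression could be checked with them.

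Each score sets 1 Dam-LMNB1 library against all Dam libraries of the same condition, pooled. Values above 0 are read as more Dam-LMNB1 than Dam methylation, that is, as contact with the lamina. No source used states the base of the scale, so differences are in score units and are not folds. All 3 scores of a condition share its pooled Dam, so changes in Dam-LMNB1 and changes in Dam cannot be told apart in a difference between OL and OPC. Read depth is unknown. Whether the libraries of a condition are separate cultures or animals is not in the labels, so the spread behind each p-value may be technical.

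A score belongs to a gene with its flanks. The Hox regions were 13.7 to 56.0 kb wide with a median of 15.0 kb, against a median of 26.3 kb over all regions, while the median Hox gene itself was 3.74 kb long. In 28 of the 39 the region began 10000 bp upstream of the gene, to within 100 bp, and in 38 it ended 2000 bp downstream of it, to within the same margin. Hox genes are so close together that 34 of the 39 regions overlapped another Hox region, and for the median gene 65.8% of the region was shared. In 27 cases the region held part of another Hox gene. Neighbouring Hox scores are therefore not independent, and a set of 21 Hox genes whose regions do not overlap each other is given beside the counts. The regions of a gene and of an antisense transcript can overlap too, so their scores share signal without being equal. Hoxa11os, for example, had a mean of −1.90 in OL, against −1.59 for Hoxa11.

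Dam methylates adenine in the sequence GATC, which reads the same on both strands, so the number of these sites bears on how well a stretch of DNA can be sampled. RefSeq promoters of build GRCm38.p6, covering 250 bases before to 50 bases after each annotated start, were matched by symbol to 22 of the 39 Hox genes (24 promoters). At least 1 GATC was present in 16 of the 24 Hox promoters (66.7%), against 48.0% of all 32851 promoters. The Hox promoters also held more CG dinucleotides, with a median of 14.5 against 7 for all promoters, and their median GC content was 57.7% against 52.7%. These are letters in a short window, whereas a score comes from a region of many kilobases. The promoters of 4 genes whose scores are described in detail are shown, 5′ to 3′ on the strand of the gene, with GATC in capitals. Hoxa5 and Hoxb4 had the largest OL minus OPC difference of their clusters, and Hoxd13 and Hoxd1 lie at opposite ends of the Hoxd cluster and had differences of opposite sign.
Hoxa5 (chr6:52204538-52204837, minus strand): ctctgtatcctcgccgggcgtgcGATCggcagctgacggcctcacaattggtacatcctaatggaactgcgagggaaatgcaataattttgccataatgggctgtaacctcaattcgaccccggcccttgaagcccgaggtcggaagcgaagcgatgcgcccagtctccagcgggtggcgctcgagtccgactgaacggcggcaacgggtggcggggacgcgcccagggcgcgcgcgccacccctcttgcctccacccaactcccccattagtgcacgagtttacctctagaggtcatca
Hoxb4 (chr11:96318017-96318316, plus strand): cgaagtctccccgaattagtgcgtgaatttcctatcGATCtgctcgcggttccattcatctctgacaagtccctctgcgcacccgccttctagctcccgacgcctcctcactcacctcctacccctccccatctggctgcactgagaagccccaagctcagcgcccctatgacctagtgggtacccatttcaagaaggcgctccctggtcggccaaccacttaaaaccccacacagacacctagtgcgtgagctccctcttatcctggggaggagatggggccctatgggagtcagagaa
Hoxd13 (chr2:74667975-74668274, plus strand): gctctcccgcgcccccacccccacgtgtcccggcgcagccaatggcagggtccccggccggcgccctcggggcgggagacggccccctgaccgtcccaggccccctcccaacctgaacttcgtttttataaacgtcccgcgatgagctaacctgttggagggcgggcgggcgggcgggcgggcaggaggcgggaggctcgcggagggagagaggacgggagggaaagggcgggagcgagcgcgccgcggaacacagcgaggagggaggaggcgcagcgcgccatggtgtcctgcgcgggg
Hoxd1 (chr2:74762730-74763029, plus strand): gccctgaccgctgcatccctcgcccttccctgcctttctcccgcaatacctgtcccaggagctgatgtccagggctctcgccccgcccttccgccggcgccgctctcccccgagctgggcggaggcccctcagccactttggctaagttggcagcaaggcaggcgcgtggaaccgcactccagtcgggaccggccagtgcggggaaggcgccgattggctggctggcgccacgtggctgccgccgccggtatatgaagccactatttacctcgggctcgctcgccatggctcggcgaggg
Hoxa5 and Hoxb4 hold 1 GATC each in this window, and Hoxd13 and Hoxd1 hold none. The windows of Hoxd13 and Hoxd1 had 37 and 29 CG dinucleotides, and those of Hoxa5 and Hoxb4 had 29 and 14.

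Every Hox gene lay on the side away from the lamina in both conditions. All 234 library values were below 0, with the highest at −0.61 and the lowest at −2.72. Tested against 0 with limma (Benjamini-Hochberg adjustment over all regions), 39 of 39 Hox genes were below 0 in OL, against 70.9% of all regions, and 39 of 39 were below 0 in OPC, against 71.4% of all regions. Adjusted p ranged from 1.50e-10 to 3.29e-06 in OL and from 1.05e-10 to 1.75e-07 in OPC (limma). Among all regions the Hox genes were neither at the bottom nor near the top, since their OL scores stood at percentiles 8.74 to 64.2 with a median of 48.3, and their OPC scores at percentiles 5.02 to 57.5 with a median of 41.7. The median Hox score was −1.52 in OL and −1.81 in OPC, beside −1.47 in OL and −1.54 in OPC for the median region. The count below 0 depends on where 0 lies: with the median of each library set to 0, 16 Hox genes were below and 10 above in OL, and 24 were below and 4 above in OPC (limma).

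**Figure D1:**
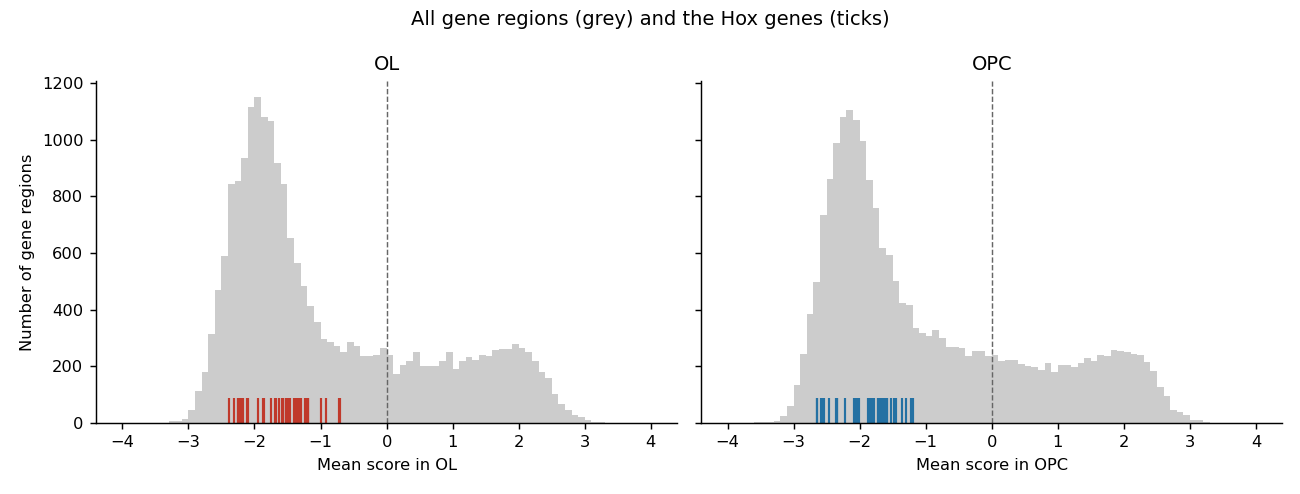
Mean scores (x axis, score units) of all gene regions as a histogram (y axis, number of regions, grey) with the 39 Hox genes as ticks, in OL (left) and OPC (right). The Hox ticks lie below 0 in both panels, within the low group of regions, at −2.38 to −0.71 in OL and at −2.65 to −1.19 in OPC.

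The clusters differed in level. Averaged over its genes, Hoxa scored −2.03, −2.20 and −2.12 in OL libraries 18, 19 and 20, against −2.40, −2.50 and −2.39 in OPC libraries 8, 9 and 10. Hoxb scored −1.18, −1.27 and −1.32 in OL libraries 18, 19 and 20, against −1.73, −1.66 and −1.71 in OPC libraries 8, 9 and 10. In both, the 3 OL values were all above the 3 OPC values. Hoxc scored −1.39, −1.47 and −1.47 in OL libraries 18, 19 and 20, against −1.49, −1.54 and −1.60 in OPC libraries 8, 9 and 10, and Hoxd scored −1.33, −1.57 and −1.50 in OL libraries 18, 19 and 20, against −1.73, −1.80 and −1.88 in OPC libraries 8, 9 and 10. OL was above OPC without overlap in these clusters too, closest in Hoxc, where the lowest OL value was −1.47 and the highest OPC value −1.49. The median over all regions separated in the same way, at −1.38, −1.50 and −1.49 in OL and −1.53, −1.55 and −1.53 in OPC. With the libraries set to a common mean and SD, the OL minus OPC difference of the Hoxc mean was −0.0019. Hoxa was the lowest cluster in all 6 libraries. Hoxb was the highest in the 3 OL libraries, and Hoxc was the highest in the 3 OPC libraries. No test was made over the clusters, because their genes share signal.

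Between the conditions, 22 Hox genes were higher in OL, 1 was lower and 16 did not pass the test (limma, adjusted p under 0.05 over all regions). Differences are given as OL minus OPC ± the standard error of the fit, with 3 libraries per condition. Over all regions 23.0% were higher and 10.9% lower, that is, 4963 and 2345 regions. The difference was above 0 in 35 Hox genes and below 0 in 4, and its median was 0.31 over the Hox genes and 0.10 over all regions. The 3 OL values were all above the 3 OPC values in 24 Hox genes, against 33.5% of all regions, and all below in 1, against 15.4%. Among the 21 genes whose regions do not overlap, 10 were higher and 1 was lower. Since Hox regions share signal, these counts describe 4 loci rather than 39 separate observations. The libraries differ by an overall shift: when all were set to a common mean and SD, the median difference over all regions was 0.02 and over the Hox genes 0.20, with 16 Hox genes higher and 1 lower, and the regions split into 3330 higher and 3261 lower. By the authors' deposited adjusted p-value, 4 Hox genes were under 0.05 (Hoxb2 and Hoxb3 at 0.0364, Hoxb6 at 0.0380 and Hoxd1 at 0.0451), all higher in OL, beside 1.91% of all regions called higher by it.

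**Figure D2:**
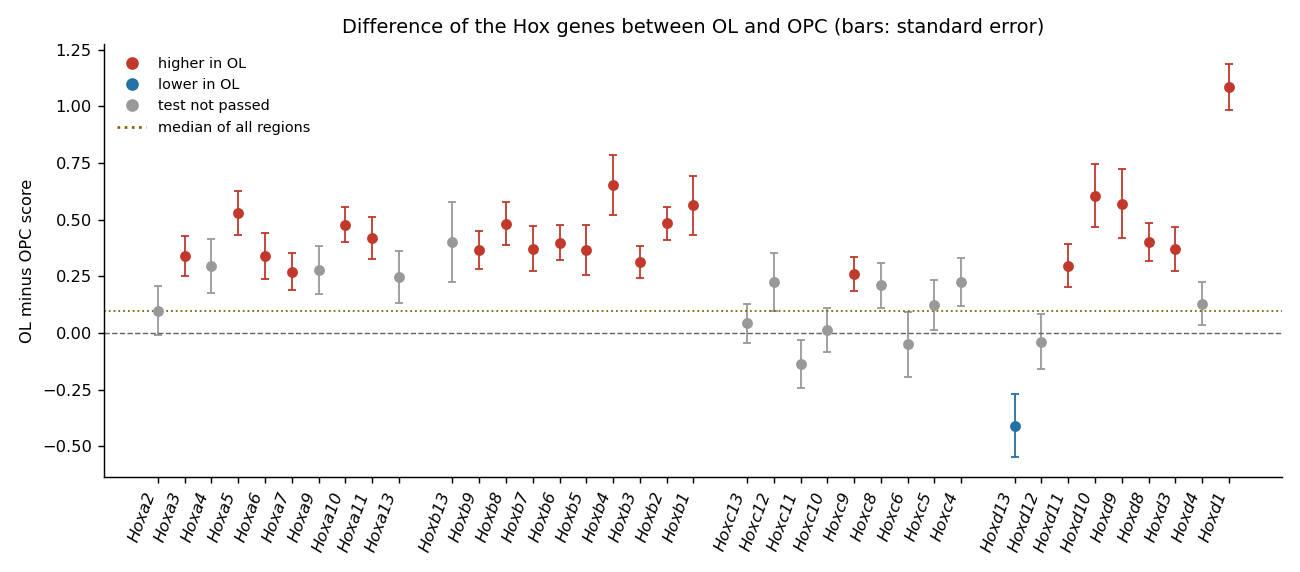
OL minus OPC score (y axis, score units) of 38 Hox genes, ordered by the start of its region within each cluster, with the standard error of the fit as bars; red marks genes higher in OL, blue the gene lower in OL and grey those that did not pass. The dotted line is the median of all regions (0.10). The Hoxb points lie between 0.31 and 0.65, Hoxc points stay within −0.14 to 0.26, and Hoxd runs from −0.41 at Hoxd13 to 1.09 at Hoxd1.

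In the Hoxa cluster 6 of 11 genes were higher in OL and none was lower, beside 23.0% higher and 10.9% lower over all regions. Among the 6 Hoxa genes whose regions do not overlap, 2 were higher. Hoxa5, which patterns the neck and chest and the airways, had the largest difference, with scores of −1.96, −2.14 and −2.26 in OL libraries 18, 19 and 20, against −2.61, −2.63 and −2.71 in OPC libraries 8, 9 and 10. The groups were wide apart, and the difference was 0.53 ± 0.10 (standard error, adjusted p = 0.00418, limma). Hoxa10 and Hoxa11 act in the lumbar body, the limb and the uterus. Hoxa10 scored −1.83, −1.92 and −1.87 in OL, against −2.34, −2.37 and −2.35 in OPC, a difference of 0.48 ± 0.08 (adjusted p = 0.00260, limma). Hoxa11, the cluster's highest gene, scored −1.53, −1.60 and −1.63 in OL, against −2.11, −2.05 and −1.86 in OPC, a difference of 0.42 ± 0.09 (adjusted p = 0.00862, limma). Neither gene's groups overlapped. Hoxa7, which acts in the thorax, was the lowest in OL and in the mean over both conditions, at −2.37, −2.38 and −2.39 in OL, against −2.57, −2.72 and −2.65 in OPC. Its difference of 0.27 ± 0.08 passed (adjusted p = 0.0316, limma), but not with the libraries set to a common mean and SD (0.12, adjusted p = 0.238). Hoxa3, which acts in the throat and the thymus, and Hoxa6 were higher by 0.34 and 0.34. The Hoxa3 call held in 10 of 11 alternative fits and was lost without OPC library 9 (adjusted p = 0.0541, limma), the Hoxa6 call held in 5 and the Hoxa7 call in 4. Hoxa2, which acts in the hindbrain, had the smallest of these differences, 0.10 ± 0.11, with overlapping groups and did not pass, nor did Hoxa4, Hoxa9 and Hoxa13, at 0.30, 0.28 and 0.25. With 1 library left out these last genes did pass, Hoxa4 and Hoxa13 without OL library 19 (0.42 and 0.36) and Hoxa9 without OL library 20 or OPC library 10 (0.35 and 0.36).

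In the Hoxb cluster 9 of 10 genes were higher in OL, and in each of the 9 all OL values were above all OPC values. Over all regions 23.0% were higher, and 33.5% had all OL values above all OPC values. Among the 6 Hoxb genes whose regions do not overlap, 5 were higher. Hoxb4, which acts in the neck region and in blood stem cells, had the largest difference. It scored −0.98, −1.24 and −1.35 in OL libraries 18, 19 and 20, against −1.93, −2.01 and −1.60 in OPC libraries 8, 9 and 10. OL library 18 was the highest and OPC library 9 the lowest, and the difference was 0.65 ± 0.13 (adjusted p = 0.00622, limma). Hoxb2, a hindbrain gene, was the highest of the cluster, at −0.70, −0.67 and −0.77 in OL, against −1.25, −1.14 and −1.20 in OPC. Its libraries were close together within each condition, and the difference was 0.48 ± 0.07 (adjusted p = 0.00184, limma). Hoxb1, which sets the identity of the hindbrain segment that makes facial motor neurons, scored −0.81, −0.95 and −0.98 in OL, against −1.77, −1.21 and −1.44 in OPC, a difference of 0.56 ± 0.13 (adjusted p = 0.0112, limma). Hoxb3 had the smallest difference of the cluster, 0.31 ± 0.07, with a mean of −0.99 ± 0.03 in OL and −1.31 ± 0.04 in OPC (SD, n = 3 each, adjusted p = 0.0103, limma). Hoxb7 was the lowest gene in OL and in the mean over both conditions, at −1.75, −1.67 and −1.60 in OL, against −2.12, −1.86 and −2.15 in OPC. It was higher in OL by 0.37 ± 0.10 (adjusted p = 0.0191, limma), a call that did not hold with the libraries set to a common mean and SD (adjusted p = 0.114) and that held in 5 of 11 alternative fits. Hoxb5, Hoxb6, Hoxb8 and Hoxb9 were higher by 0.37, 0.40, 0.48 and 0.36, and of these the Hoxb5 call held in 5 of the 11 fits. Hoxb13, a prostate and tail gene that lies apart from the others at the far end of the cluster, scored −0.96, −1.34 and −1.69 in OL, against −1.51, −1.72 and −1.96 in OPC. Its groups overlapped, and the difference of 0.40 ± 0.18 did not pass (adjusted p = 0.106, limma), though without OL library 20 it was 0.58 and passed (adjusted p = 0.0274).

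In the Hoxc cluster 1 of 9 genes passed and was higher in OL, beside 23.0% higher over all regions. Among the 5 Hoxc genes whose regions do not overlap, 1 was higher. Hoxc9, which specifies motor neurons of the thoracic spinal cord, scored −1.23, −1.12 and −1.20 in OL libraries 18, 19 and 20, against −1.40, −1.48 and −1.45 in OPC libraries 8, 9 and 10. The groups did not overlap and the difference was 0.26 ± 0.08 (adjusted p = 0.0260, limma), but adjusted p was 0.135 with the libraries set to a common mean and SD, 0.0726 after quantile normalization and 0.0991 with a common median. Hoxc11, a hindlimb and tail gene, was the highest of the cluster in OPC and in the mean over both conditions and had its lowest difference, with −1.20, −1.33 and −1.53 in OL, against −1.24, −1.34 and −1.08 in OPC. The groups overlapped and the difference of −0.14 ± 0.11 did not pass (adjusted p = 0.339, limma). Hoxc6, which acts in the motor neurons of the forelimb, was the lowest gene at −1.75, −1.91 and −1.91 in OL, against −1.76, −1.53 and −2.14 in OPC, with overlapping groups and a difference of −0.05 ± 0.14. The other 6 genes differed by 0.01 to 0.22, and none of these 6 passed with all libraries. Hoxc12 passed without OPC library 8 (0.36) and Hoxc4 without OL library 18 (0.32). In Hoxc8 the 3 OL values were nevertheless all above the 3 OPC values. The mean difference over the cluster was 0.10, equal to the median of all regions to 2 decimals, and it was −0.0019 with the libraries set to a common mean and SD. Whether the Hoxc difference is smaller than that of the other clusters was not tested.

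In the Hoxd cluster 6 of 9 genes were higher and 1 was lower, beside 23.0% higher and 10.9% lower over all regions. Among the 4 Hoxd genes whose regions do not overlap, 2 were higher and 1 was lower. Hoxd1, which in the mouse acts in pain-sensing neurons, had the largest difference of the 39 and the highest OL score of the cluster, while in OPC 4 Hoxd genes scored higher. It scored −0.61, −0.84 and −0.70 in OL libraries 18, 19 and 20, against −1.98, −1.73 and −1.69 in OPC libraries 8, 9 and 10 (chr2:74752979-74767142). The groups were far apart, at a difference of 1.09 ± 0.10 (adjusted p = 0.000300, limma). It stood at percentile 99.9 of the differences of all regions, and it was 1 of 28 regions (0.130% of all) called higher by more than 1. Hoxd13, which shapes the digits, lies at the other end of the cluster (chr2:74658309-74673599). It scored −2.01, −2.24 and −2.03 in OL libraries 18, 19 and 20, against −1.69, −1.40 and −1.97 in OPC libraries 8, 9 and 10. All 3 OL values were below the OPC values, the highest OL value being −2.01 and the lowest OPC value −1.97, and the difference was −0.41 ± 0.14 (adjusted p = 0.0484, limma). The call was lost when OL library 18, 19 or 20 or OPC library 8 or 9 was left out, with differences of −0.55 to −0.26 over the alternatives and adjusted p up to 0.152, and the authors' deposited adjusted p-value was 0.253.

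The remaining Hoxd genes lay between these. Hoxd10, which acts in the motor neurons of the hindlimb, scored −0.91, −1.49 and −1.33 in OL, against −1.73, −1.94 and −1.87 in OPC, a difference of 0.61 ± 0.14 (adjusted p = 0.0109, limma). Hoxd9 scored −1.21, −1.71 and −1.63 in OL, against −1.82, −2.25 and −2.18 in OPC, a difference of 0.57 ± 0.15 (adjusted p = 0.0192, limma). In both genes OL library 18 was the highest of the 6. Hoxd3, Hoxd8 and Hoxd11 were higher by 0.37, 0.40 and 0.30. The Hoxd9 call was lost without OL library 18 or OPC library 9 or 10 (adjusted p up to 0.0647, limma), the Hoxd3 call without OPC library 10 (0.0515), and the Hoxd11 call held in 3 of 11 alternative fits. Hoxd4 and Hoxd12 differed by 0.13 ± 0.09 and −0.04 ± 0.12 and did not pass. Hoxd1 minus Hoxd13, a pair chosen after its values were seen, was 1.40, 1.40 and 1.33 in OL, against −0.30, −0.34 and 0.28 in OPC. In OL the anterior end of the cluster thus scored above the posterior end in each library, whereas in OPC the sign varied. No test of this difference is given, because the pair was picked for it.

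**Figure D3:**
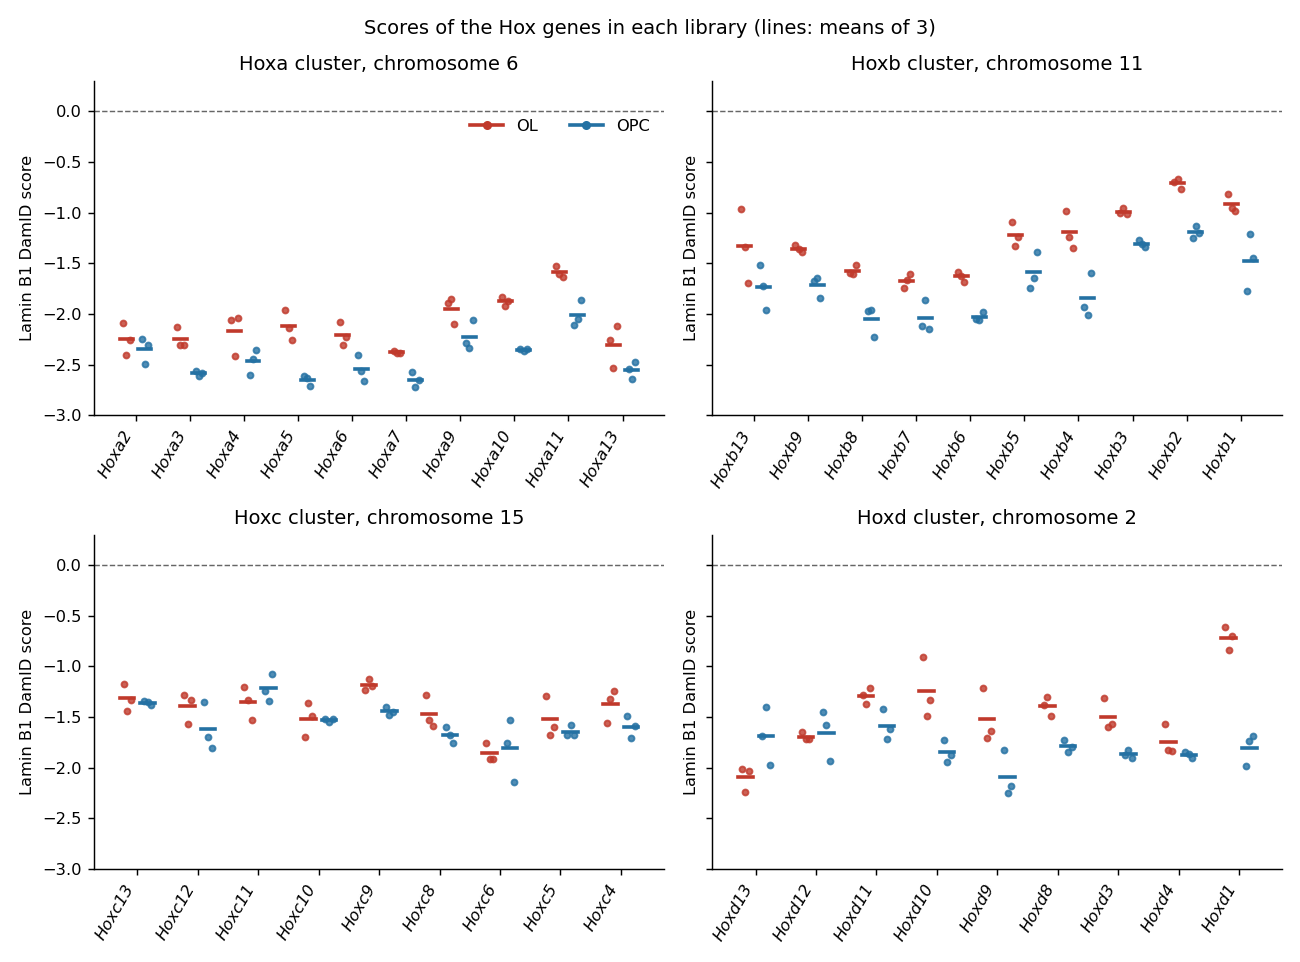
Lamin B1 DamID scores (y axis, score units) of 38 Hox genes in the 3 OL libraries (red) and the 3 OPC libraries (blue), each cluster ordered by the start of the regions; points are libraries and lines their means. All points lie below the dashed line at 0, the Hoxa panel is the lowest, and the widest gap between the conditions is at Hoxd1, with −0.84 to −0.61 in OL and −1.98 to −1.69 in OPC.

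With the scores as deposited, the Hoxd cluster lay between genes that changed sides of 0. Lnp (chr2:74512836-74588948), which encodes a membrane protein of the endoplasmic reticulum, ends 69.4 kb before the cluster on the Hoxd13 side. It scored 0.76, 0.70 and 0.73 in OL libraries 18, 19 and 20, against −0.45, −0.56 and −0.43 in OPC libraries 8, 9 and 10. Mtx2 (chr2:74815811-74878748), which encodes a protein of the mitochondrial outer membrane, begins 48.7 kb beyond it on the Hoxd1 side. It scored 0.37, 0.31 and 0.24 in OL libraries 18, 19 and 20, against −0.59, −0.77 and −0.56 in OPC libraries 8, 9 and 10. Both were above 0 in all 3 OL libraries and below 0 in all 3 OPC libraries. Even in OPC they scored above the median region, which was at −1.55 to −1.53 in the OPC libraries. The change of side thus depends on where 0 lies. With the median of each library set to 0, Lnp and Mtx2 lie above 0 in both conditions. Lnp was higher by 1.21 ± 0.07 (adjusted p = 5.94e-05, limma) and Mtx2 by 0.95 ± 0.08 (adjusted p = 0.000175, limma). Tested against 0, Lnp was above it in OL (adjusted p = 7.69e-08) and below it in OPC (adjusted p = 2.98e-06), and so was Mtx2 (adjusted p = 3.55e-04 in OL and 9.39e-07 in OPC, limma).

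With the scores as deposited, the cluster between them stayed below 0. The gene deserts on both sides of the Hoxd genes are known to hold the distant enhancers that drive them in limbs and other tissues, but the deposited regions are genes with flanks and leave the deserts themselves unmeasured. Haglr, a long non-coding RNA that starts beside Hoxd1 and overlaps its region, scored −0.63, −0.84 and −0.83 in OL, against −1.92, −1.57 and −1.75 in OPC, a difference of 0.98 ± 0.11 (adjusted p = 0.000521, limma). Evx2, a homeobox gene next to Hoxd13 whose region overlaps it, scored −1.86, −2.05 and −1.90 in OL, against −2.22, −1.92 and −2.20 in OPC. Its groups overlapped, and the difference of 0.18 ± 0.11 did not pass. The next genes outward, Atp5g3 and Atf2 on the Hoxd13 side and Nfe2l2 on the Hoxd1 side, were at −1.88 or lower in all 6 libraries with differences of 0.13, 0.14 and 0.22 that did not pass, while Hnrnpa3 was higher by 0.32. The nearest regions above 0 in all 6 libraries were Ttn at 1935 kb and Lrp2 at 5062 kb.

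**Figure D4:**
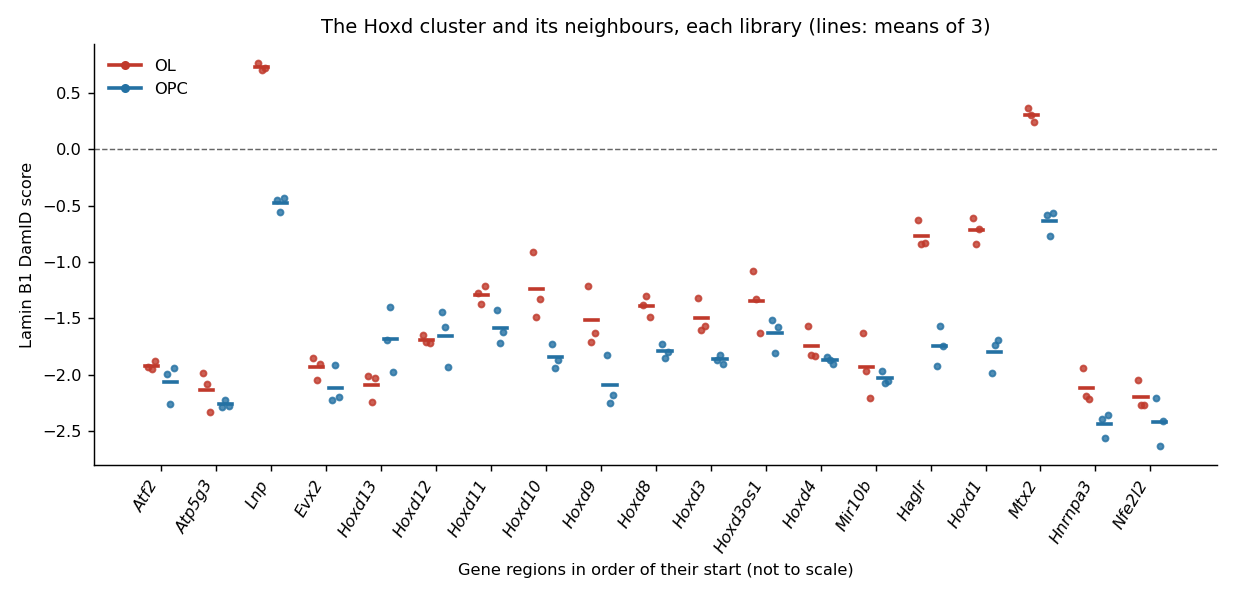
Scores (y axis, score units) of the Hoxd genes, Evx2 and the non-coding genes inside the cluster, and the 3 nearest protein-coding genes on each side, ordered by the start of their regions, in OL (red) and OPC (blue); points are libraries and lines their means. Lnp and Mtx2 lie above the line at 0 in OL and below it in OPC, and every region between them is below 0 in both.

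None of the 6 nearest protein-coding genes of Hoxa, of Hoxb or of Hoxc lay above 0 in OL or in OPC. Around Hoxa none of the 6 nearest protein-coding genes passed, with differences of −0.18 to 0.21, and the nearest regions above 0 in all 6 libraries were 3795 and 3797 kb away (a tRNA gene and Pde1c). Around Hoxb 3 of 6 were higher and none was lower (Atp5g1 by 0.49, Snx11 by 0.42 and Cbx1 by 0.27), and the nearest regions above 0 in all 6 libraries were Krt20 at 3056 kb and Kif2b at 4597 kb. Around Hoxc none was higher and 1 was lower (Atf7, a difference of −0.26), and Gtsf1 at 362 kb and Krt6b at 1221 kb were the nearest above 0 in all 6. Around Hoxd 3 of 6 were higher and none was lower. Beside these counts, 23.0% of all regions were higher and 10.9% lower. The median score of the 6 neighbours was −2.37 in OL and −2.36 in OPC around Hoxa, −1.71 in OL and −2.02 in OPC around Hoxb, −2.18 in OL and −2.17 in OPC around Hoxc, and −2.02 in OL and −2.16 in OPC around Hoxd. Averaged over the 3 libraries, the cluster means were −2.12 in OL and −2.43 in OPC for Hoxa, −1.26 in OL and −1.70 in OPC for Hoxb, −1.44 in OL and −1.54 in OPC for Hoxc, and −1.46 in OL and −1.80 in OPC for Hoxd. These means were above the median of the neighbours, except for Hoxa in OPC, and no test was made of this.

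**Figure D5:**
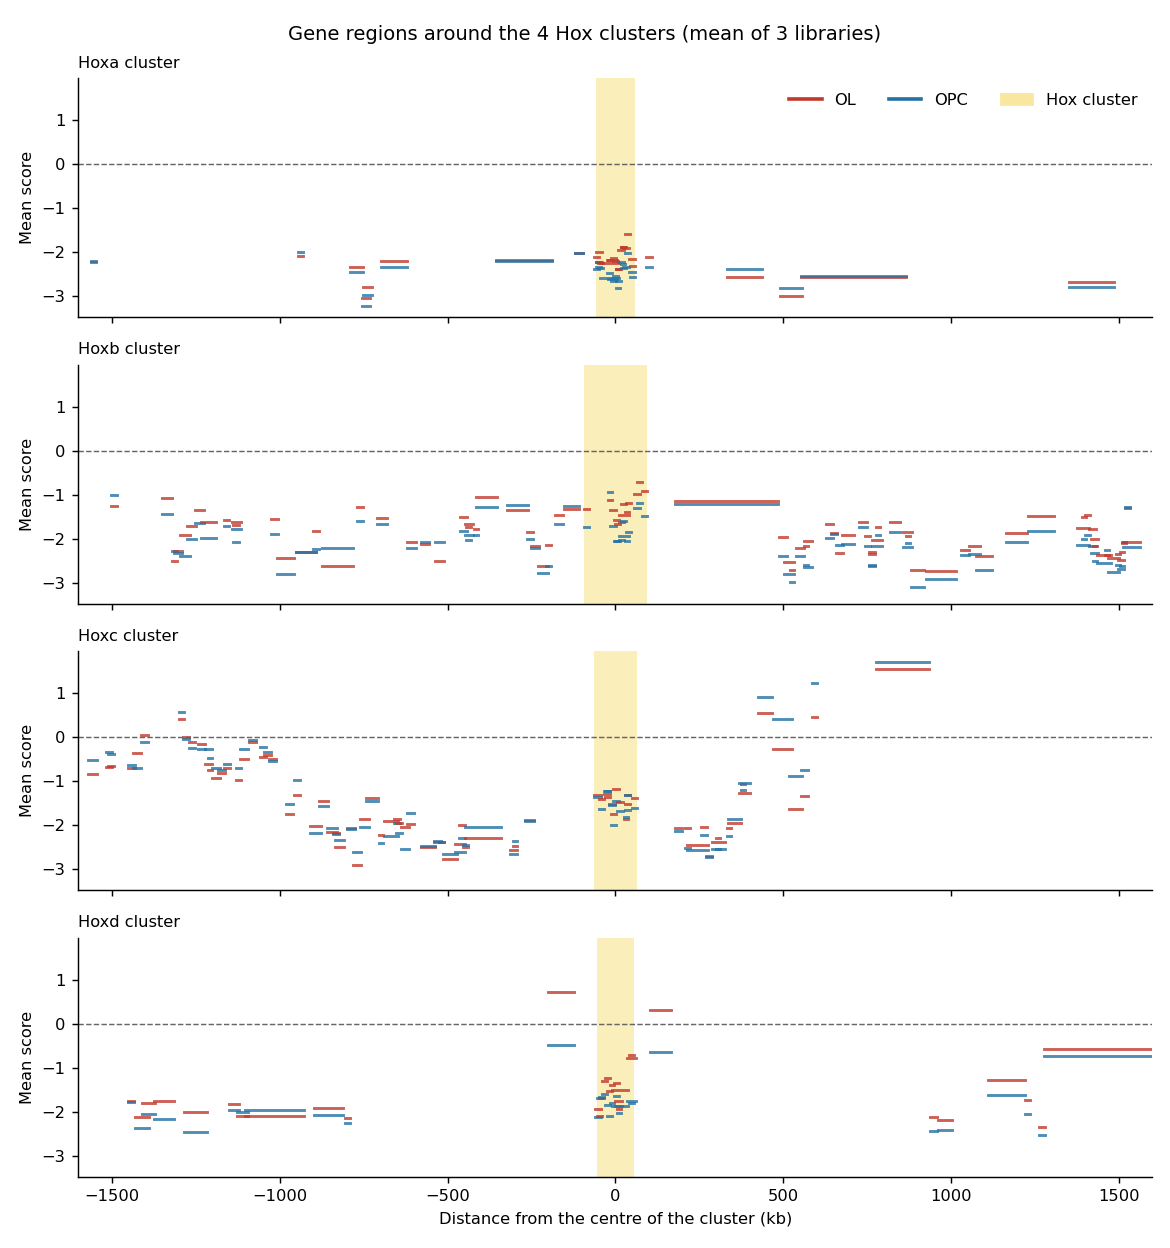
Mean scores (y axis, score units) of gene regions within 1500 kb of each Hox cluster, drawn to scale against the distance from the cluster's centre (x axis, kb), in OL (red) and OPC (blue); each line spans 1 region and the shaded band is the cluster. Only the Hoxd panel shows regions next to the cluster that lie above 0 in OL and below 0 in OPC, Lnp at a mean of 0.73 in OL and −0.48 in OPC and Mtx2 at 0.31 in OL and −0.64 in OPC.

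Grouped by their place along the body axis, 6 of 8 anterior Hox genes (paralog groups 1 to 3) were higher in OL and none was lower, with a median difference of 0.35. Of the central genes (groups 4 to 8), 9 of 15 were higher and none was lower, with a median of 0.34. Of the posterior genes (groups 9 to 13), 7 of 16 were higher and 1 was lower, with a median of 0.27. Over all regions 23.0% were higher and 10.9% lower, with a median of 0.10. All 3 genes of paralog group 3 (Hoxa3, Hoxb3 and Hoxd3) were higher, by 0.31 to 0.37, and so were the 2 genes of group 7. The regions of Hoxa3 and Hoxd3 span 56007 and 48280 bp and hold part of 4 and 2 other Hox genes. Among the 6 genes of groups 12 and 13 none was higher and Hoxd13 was lower. These groups were not tested against each other. Place and cluster are mixed in these counts. The anterior groups hold no Hoxc gene and the posterior groups hold Hoxc9 to Hoxc13, and 1 of the 9 Hoxc genes was higher. Each cluster was also ordered by paralog number, from posterior to anterior. Spearman's rho between this order and the difference was 0.62 over the 9 Hoxd genes and 0.33 over the 10 Hoxb genes. It was 0.13 over the 9 Hoxc genes and −0.34 over the 11 Hoxa genes. For the OL score itself rho was 0.76 over Hoxb, 0.43 over Hoxd, −0.29 over Hoxa and −0.47 over Hoxc. For the OPC score it was 0.64 over Hoxb, −0.07 over Hoxa and −0.58 over Hoxc and over Hoxd. These values describe genes that share signal with their neighbours, and no p is given.

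The non-coding genes inside the clusters were below 0 in all 6 libraries, as the Hox genes were. In the Hoxa cluster the long non-coding RNAs Hoxaas3, Mira and Hoxa11os were higher in OL by 0.45, 0.44 and 0.44. Hottip, which in human cells is known to bind WDR5 and activate posterior HOXA genes, differed by 0.29 ± 0.11 with adjusted p of 0.0777 (limma), and Hotairm1 and Hoxaas2 did not pass either. In the Hoxb cluster Hoxb5os was higher by 0.48. Hotair, known for its link with Polycomb, lies in the Hoxc cluster and scored −1.07, −1.37 and −1.42 in OL, against −1.21, −1.38 and −1.08 in OPC, with overlapping groups and a difference of −0.07 ± 0.12. In the Hoxd cluster Hoxd3os1 differed by 0.29 ± 0.14 and did not pass.

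The microRNAs of the clusters belong mostly to the miR-10 and miR-196 families, which are known to target Hox mRNAs. Their mature 5p sequences, from RefSeq (GRCm38.p6), are shown with the seed (bases 2 to 8) in capitals, because members with the same seed lie in different clusters.
mmu-miR-10a-5p: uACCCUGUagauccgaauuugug
mmu-miR-10b-5p: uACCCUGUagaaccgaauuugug
mmu-miR-196a-5p: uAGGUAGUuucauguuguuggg
mmu-miR-196b-5p: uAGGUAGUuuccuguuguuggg
miR-10a-5p and miR-10b-5p share a seed and differ by U12A, counted from the 5′ end, and miR-196a-5p and miR-196b-5p share another and differ by A12C. Mir10a, next to Hoxb4, scored −1.15, −1.53 and −1.47 in OL libraries 18, 19 and 20, against −2.05, −2.27 and −1.80 in OPC libraries 8, 9 and 10. The groups did not overlap, and the difference was 0.66 ± 0.14 (adjusted p = 0.00752, limma), close to that of Hoxb4, whose region overlaps it. Mir10b, beside Hoxd4, scored −1.63, −1.97 and −2.20 in OL, against −1.97, −2.07 and −2.06 in OPC, with overlapping groups and a difference of 0.10 ± 0.13. Mir196b, between Hoxa9 and Hoxa10, was higher by 0.39 ± 0.08 (adjusted p = 0.00796, limma). Mir196a-1 in Hoxb and Mir196a-2 in Hoxc encode the same mature miR-196a-5p and differed by −0.17 ± 0.10 and 0.25 ± 0.09, and neither passed. Mir615, in the Hoxc cluster, differed by 0.01 ± 0.12. In all, 2 of the 6 microRNA genes were higher, beside 23.0% of all regions, and none was lower, and all 6 were below 0 in both conditions.

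Genes that work with Hox proteins or regulate the clusters were read from lists by the same test. Of the 11 TALE homeobox cofactors, which bind DNA together with Hox proteins, 2 were higher in OL and none was lower, with a median difference of 0.09, and all 11 were below 0 in both conditions. Pknox1 had scores of −2.18 ± 0.16 in OL and −2.58 ± 0.09 in OPC, and Pbx4 had −2.07 ± 0.08 in OL and −2.43 ± 0.11 in OPC (SD, n = 3 each). Of 27 Polycomb genes, which encode the repressors of Hox clusters, 9 were higher and 1 was lower, with a median difference of 0.19. Phf1, an accessory subunit of the Polycomb complex that methylates histone H3, had −1.65 ± 0.06 in OL and −2.36 ± 0.13 in OPC, and Ezh2, its catalytic subunit, had −1.13 ± 0.08 in OL and −1.50 ± 0.10 in OPC (SD, n = 3 each). Rnf2, a ubiquitin ligase of the other complex, was the 1 lower gene, with −1.79 ± 0.06 in OL and −1.42 ± 0.10 in OPC (SD, n = 3 each). Its relative Ring1, also in the list, was higher by 0.40, with means of −1.19 in OL and −1.59 in OPC. Of 18 trithorax and activator genes, 6 were higher and 2 lower, with a median difference of 0.19, among them Wdr5, higher by 0.47, and Kmt2c, with a difference of −0.42. Over all regions the share higher was 23.0%, the share lower 10.9% and the median difference 0.10, and no list was tested as a set.

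Of 16 genes of the retinoic acid pathway, 6 were higher and 1 was lower, beside 23.0% higher and 10.9% lower over all regions, with a median difference of 0.18. Cyp26a1 and Cyp26c1, which encode enzymes that degrade retinoic acid, were higher by 0.70 and 0.72. Cyp26b1, listed with them, differed by 0.03 and did not pass. Rxrg, a nuclear receptor, had −0.83 ± 0.20 in OL and −0.10 ± 0.14 in OPC (SD, n = 3 each) and was lower. Rxra and Rxrb, of the same receptor family, were higher by 0.25 and 0.48. Of 9 hindbrain and caudal patterning genes, 5 were higher and 1 was lower, with a median difference of 0.27. Egr2, which acts upstream of Hox genes in the hindbrain, was higher by 0.46. Of the 8 ParaHox and Evx genes, the closest relatives of the Hox genes, 1 was higher and 1 lower, with a median difference of −0.01. Cdx4, a regulator of Hox genes in the posterior embryo, scored 0.60 ± 0.21 in OL and −0.33 ± 0.25 in OPC (SD, n = 3 each), and Pdx1, the pancreatic member, scored −1.70 ± 0.11 in OL and −1.28 ± 0.10 in OPC. Of 99 other homeobox and paired genes, 23 were higher and 9 lower, a share of 23.2% higher, with a median difference of 0.11 and median scores of −1.44 in OL and −1.50 in OPC. Of these 99, 2 were above 0 and 96 below 0 in OL, and 4 were above and 94 below in OPC. No Hox gene was above 0 in either condition. Of all 21534 regions, 5579 were above 0 in OL and 5493 in OPC.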

How the data were processed

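The 39 Hox genes, the gene lists and the tests were chosen with earlier results of these data known. Per the labels' protocols, DNA was amplified by methylation-specific PCR, and TruSeq libraries were made. The build mm10, BWA 0.7.17 and cutadapt 1.9.1 are named in the submitters' processing notes, with nothing on how scores were made. The deposited table gives 21534 regions a score in each of 6 Dam-LMNB1 libraries, each set against pooled Dam of its condition per the file headers, and the authors' p-value and adjusted p-value per region. No column of the 5 Dam libraries was used on its own. Read depth is unknown.

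Scores were used as deposited in limma 3.58.1 (R 4.3.3), fitted to all 21534 regions with a mean for OL and for OPC and a trended variance (9.42 degrees of freedom). Two-sided tests set each mean against 0 and compared OL with OPC, at a Benjamini-Hochberg adjusted p of 0.05. In each cluster the genes with the highest and lowest mean score and the largest and smallest difference were named in full, with the 3 nearest protein-coding genes on each side and non-coding genes inside; other members were named for completeness, except that 1 Hox gene, kept in every count, and 1 list gene are not reported here on their own. From most lists genes with the largest differences that passed were named, and a few more, chosen after their values were seen. No histone gene and none of the other homeobox and paired genes was named, though members of both lists passed. Alternatives were library scaling, the spread model, the zero point, leaving out each library, and the authors' adjusted p-value.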

Additional observations from a re-analysis of the deposited data

How the results depend on the processing

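The 39 Hox genes were below 0 in both conditions under each scaling to a common mean and SD or quantiles, each spread model and without any single library. With the median of each library set to 0, Hox genes below 0 numbered 16 in OL and 24 in OPC, and Hox genes above 0 numbered 10 in OL and 4 in OPC. Hox genes higher in OL than in OPC numbered 16 with a common mean and SD, 17 after quantile normalization, 17 with a common median and 15 to 21 without 1 library, against 22, and 4 by the authors' deposited adjusted p-value. Hox genes lower in OL than in OPC numbered 0 to 1 without 1 library and 0 by the authors' value. All regions higher in OL than in OPC numbered 3136 to 4132 without 1 library, the lowest without OPC library 9. With a common mean and SD the Hoxc OL minus OPC mean score was −0.0019 and the Hoxc OL mean score −1.49, and after quantile normalization the Hoxc difference was 0.022. The Hoxa OL minus OPC mean score was 0.17 with a common mean and SD and 0.16 after quantile normalization, with a Hoxa OPC mean score of −2.36 under both. The Hoxb OL minus OPC mean score was 0.34 and 0.36, with a Hoxb OPC mean score of −1.64 and −1.65. The cause was not tested. Of the 23 Hox calls, 13 held under all 11 refits (Hoxa5, Hoxa10, Hoxa11, Hoxb1, Hoxb2, Hoxb3, Hoxb4, Hoxb6, Hoxb8, Hoxb9, Hoxd1, Hoxd8 and Hoxd10). No paired analysis was possible because the groups share no replicate numbers. Unknown depth, a pooled Dam per condition and overlapping regions limit every value.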

Other observations

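Histone and keratin genes were read by the same test, by which 23.0% of all regions were higher in OL and 10.9% lower. Of 64 histone genes, which also lie in dense clusters, 7 were higher in OL and 4 were lower, and all 64 were below 0 in both conditions, with a median score of −2.27 in OL and −2.36 in OPC. Of 50 keratin genes, some of which lie on the chromosomes of the Hoxb and Hoxc clusters, 1 was higher and 16 were lower, with a median difference of −0.20. Near the Hoxc cluster keratin genes lie side by side and some of their regions overlap, so these counts are not of separate loci. Overlap among the other keratin regions, those of Krt27 and Krt14 included, was not examined. Keratin genes above 0 numbered 9 in OL and 17 in OPC, beside 5579 in OL and 5493 in OPC of all 21534 regions. Krt27 had −0.45 ± 0.13 in OL and 0.13 ± 0.20 in OPC and Krt14 had 0.03 ± 0.13 in OL and 0.50 ± 0.08 in OPC (SD, n = 3 each). No family was tested against another.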
